A study of Homo sapiens with 17 samples.

Results

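The gene set described here comprised all 374 genes that the authors' deposited table lists for MED25 shRNA B against the lentiviral control, out of 1400 genes listed in any of the 4 tables of the series. Membership was set by the table alone, and no gene was left out. The cells were PC3, an established human prostate cancer line, at early passage. In the knockdown group (3 libraries) a lentivirus delivered sequence B of 2 hairpins against MED25, and in the control group (3 libraries) it delivered a hairpin against luciferase according to the treatment protocol, or an empty vector according to the series design. Both groups were harvested on day 7 after infection, and no allele or drug beyond the virus is named for either. The labels do not say whether libraries of a group came from separate cultures or whether infected cells were selected.

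Mediator is a large protein complex that carries signals from DNA-bound transcription factors to RNA polymerase II. MED25 is a subunit through which several activators make contact with it, among them the ETS factors of the PEA3 group (ETV1, ETV4 and ETV5) and the stress factor ATF6-alpha. The series looked for genes that both MED25 and ETV4 may regulate. A short hairpin RNA (shRNA) is processed into a small RNA that lowers its target transcript.

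Each gene has 1 value, a log2 ratio, given below as knockdown over control, so that −1 is a 2-fold decrease. No value per library was analysed here, and depth, spread between replicates and tests of this work are therefore missing for every gene. The table also gives an adjusted p on a scale that is not stated in the sources used here. It is called the score below and used only to rank genes. All 374 genes were lower after knockdown, and genes that were higher or that did not reach the authors' limits were not analysed here. In whole-culture RNA, fewer cells of a type and less RNA per cell cannot be told apart.

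MED25 itself stood at −1.71 in the authors' deposited table, or 30.5% of the control level, with a score of 318. It ranked number 10 of 374 by size of decrease. The sign of the ratios was partly read from this gene, so its decrease is no separate check of the labels. None of the other 32 Mediator subunits on the list used here was in the table, which does not show that they were unaltered. Among 28 ETS factors, ETS1 alone was listed, at −0.79 in the authors' deposited table. Of markers for the cell type, 1 of 5 epithelial markers (KRT19) was listed and none of the 5 prostate luminal, 7 fibroblast, 5 endothelial and 5 immune markers. A table of lower genes cannot show the level of these markers.

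The decreases were mostly moderate. Values in the authors' deposited table ran from −2.50 (5.65-fold lower) to −0.59 (66.7% of control), with a median of −0.77 (58.6% of control). Of the 374 genes, 75 were at least 2-fold lower, which is 20.1% and serves below as the background for every list, and 15 were at least 3-fold lower. The listed genes included 334 protein-coding genes, which is 1.67% of the 19951 coding genes in GENCODE release 29. That second background counts genes that PC3 cells may not express, with the number of genes tested by the authors not given in the sources used here. Scores ran from 20.3 to 1253 with a median of 63.4 in the authors' deposited table.

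**Figure D1:**
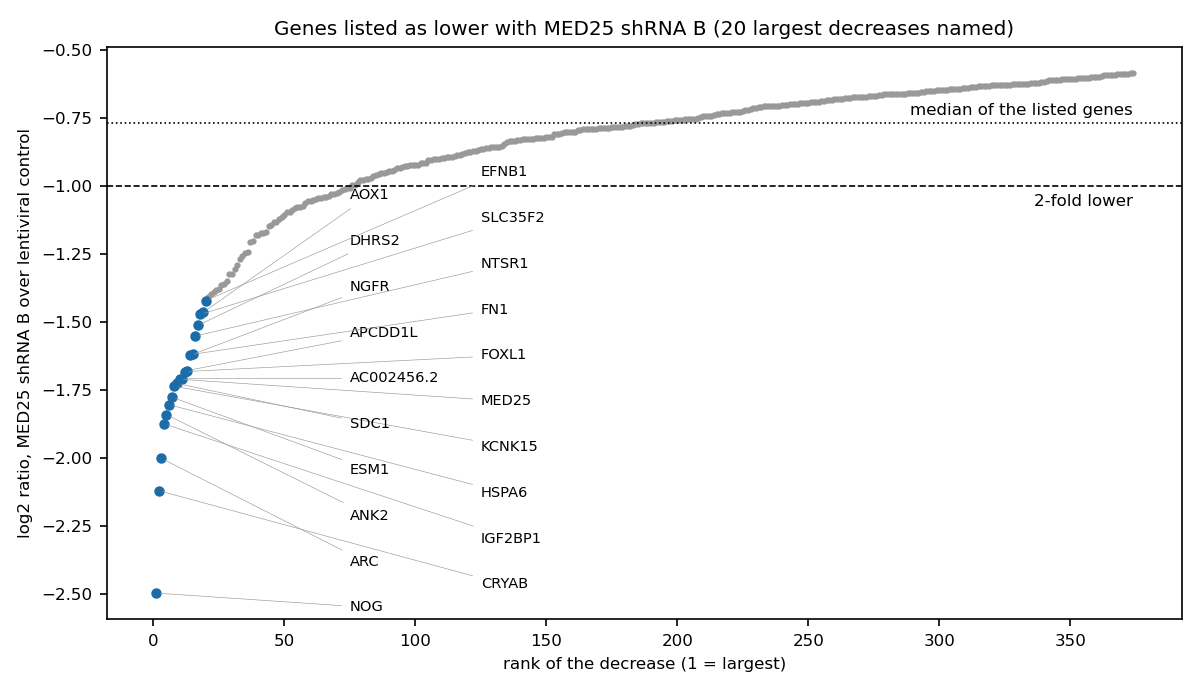
Each point is 1 of the 374 listed genes, with its rank by size of decrease on the x axis and its log2 ratio (MED25 shRNA B over lentiviral control) on the y axis. The 20 largest decreases are named, from NOG at −2.50 to EFNB1 at −1.42, and the dashed and dotted lines mark a 2-fold decrease and the median of −0.77.

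The lowest value belonged to NOG, which encodes noggin, a secreted antagonist of bone morphogenetic proteins. It stood at −2.50 in the authors' deposited table, or 17.7% of control, and was the 1 gene lowered more than 5-fold. Next came CRYAB, a small heat shock protein, at −2.12, and ARC, an immediate early gene of synaptic plasticity, at −2.00 in the authors' deposited table. IGF2BP1, an oncofetal RNA-binding protein, was at −1.88, and ANK2, a membrane-cytoskeleton adaptor of the ankyrin family, at −1.84 in the authors' deposited table. These 4 genes after NOG were between 3.58-fold and 4.35-fold lower.

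A further group lay between 3.07-fold (NGFR) and 3.49-fold (HSPA6) lower. HSPA6, a strictly stress-inducible HSP70 chaperone, stood at −1.81 and the secreted proteoglycan ESM1 at −1.78 in the authors' deposited table. The potassium channel subunit KCNK15 was at −1.74 and the cell-surface heparan sulfate proteoglycan SDC1 at −1.73 by the authors' deposited table. For the forkhead factor FOXL1 the authors' deposited table gives −1.68, and for APCDD1L also −1.68. Fibronectin (FN1) and the neurotrophin receptor NGFR both stood at −1.62 in the authors' deposited table. At this same ratio their scores differed, 289 for FN1 and 85.6 for NGFR in the authors' deposited table.

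The ranking by score put other genes first. SLC35F2, a solute carrier, had the highest score of the authors' deposited table, 1253, with a log2 ratio of −1.47. SDC1 was second, and CDCA4, a gene associated with cell division, next with a score of 799 at −1.20 in the authors' deposited table. FOXL1 (599), the argonaute gene EIF2C2, now named AGO2 (570), NOG (543), AOX1 (468), FJX1 (464), RP5-907D15.2 (462) and JUN (448) made up the rest of the 10 highest scores in the authors' deposited table. AGO2 is the slicer protein that loads small RNAs, and at −1.12 in the authors' deposited table it was the 1 gene listed among 14 small RNA pathway genes. At the other end, C11orf68 had the smallest decrease (−0.59) and LINC00243 the lowest score (20.3) in the authors' deposited table.

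Genes were then grouped by 57 lists, of which 48 had at least 1 member in the table, 25 had at least 3, and 9 had none. In all, 145 of the 374 genes belonged to a list. No test was made on any list, since the table holds only genes past the authors' limits and the lists were drawn up with earlier results of these data known.

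**Figure D2:**
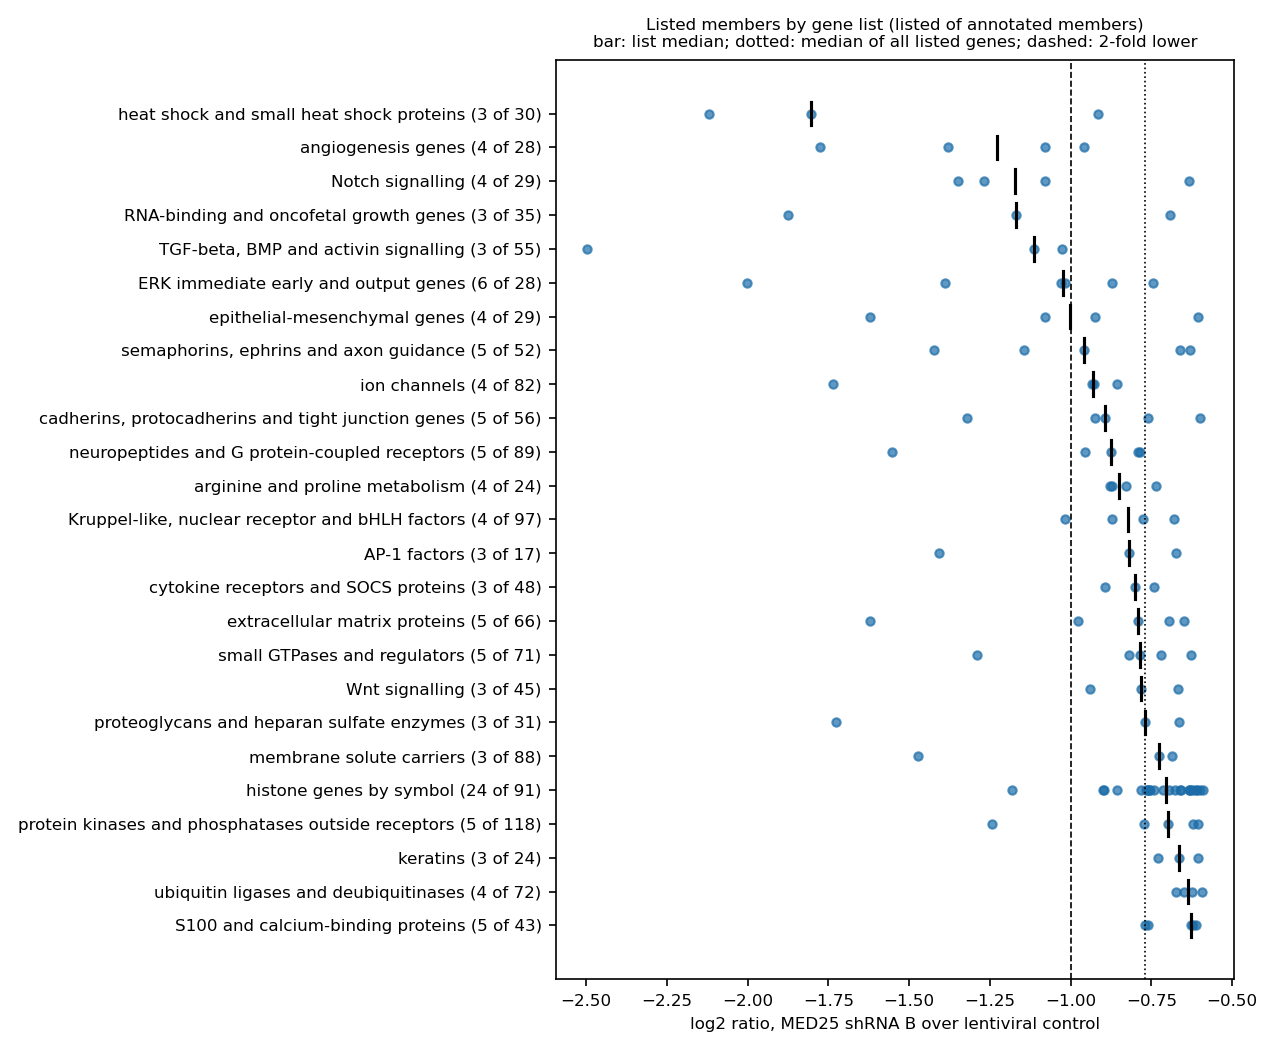
Each row is a gene list with at least 3 listed members, each point a member, and the x axis its log2 ratio (MED25 shRNA B over lentiviral control). Bars are list medians, which run from −1.81 for heat shock genes to −0.63 for S100 and calcium-binding genes, on either side of the median of all listed genes (dotted, −0.77).

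Immediate early genes were among the stronger decreases. Of 28 immediate early and output genes of ERK signalling, 6 were listed (21.4% of the list, beside 1.67% of all coding genes). Their median was −1.02 against −0.77 for all listed genes, and 4 of the 6 were at least 2-fold lower. ARC was followed by IER2 at −1.39, IER5 at −1.03 and KLF10 at −1.02 in the authors' deposited table. The proto-oncogene MYC stood at −0.87 and PHLDA1 at −0.74 in the authors' deposited table. EGR1, FOS, CCND1 and DUSP6 were not listed. The immediate early and output list leaves out IER5L, which was at −1.05 in the authors' deposited table. The ERK phosphatase gene DUSP5 was at −0.80 in the authors' deposited table, the 1 gene listed of 16 feedback regulators. That list leaves out the phosphatase gene DUSP9, which was at −0.86 in the authors' deposited table.

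AP-1 is a dimer of Jun and Fos family proteins, and JUN was its lowest member here. It stood at −1.41, or 37.7% of control, in the authors' deposited table, with FOSL1 (FRA1) at −0.82 and JUNB at −0.67. These 3 were the listed members of 17, with a median of −0.82, and 1 of them passed 2-fold. With MED25 shRNA A, which was compared with the same lentiviral control libraries, JUN was at −0.60 and FOSL1 and JUNB were not listed in the authors' deposited table. That table also held 3 of the 17 factors, so the number listed was the same for both hairpins.

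Stress chaperones had the lowest median of any list with 3 or more members, −1.81. The 3 listed of 30 were CRYAB, HSPA6 and BAG3, the last a co-chaperone of HSP70, at −0.91 in the authors' deposited table. HSPA1A, HSPA1B, DNAJB1 and HSPH1 were not listed. The list leaves out the chaperone genes TRAP1 (−0.95) and CLPB (−0.61), which were also in the authors' deposited table. Its median therefore covers only the 3 members chosen for the list. With shRNA A, CRYAB, HSPA6 and BAG3 stood at −2.25, −1.66 and −1.19 in the authors' deposited table. Of 31 genes on the list for unfolded protein or amino acid stress, 1 was listed, PPP1R15A at −0.76 in the authors' deposited table, and valyl-tRNA synthetase (VARS, −0.68) was the 1 listed of 20 aminoacyl-tRNA synthetases. The table of shRNA A, with the same controls, lists 22 of these 31 stress genes and 13 of the 20 synthetases, a difference between hairpins that was not tested.

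The region upstream of HSPA6 is shown because it holds 2 matches to a heat shock motif (GAANNTTC) and 2 to the AP-1 motif (TGANTCA), marked in capitals. It covers the 250 bases before the annotated start, chr1:161524290-161524539, plus strand, from RefSeq on GRCh38.p14.
HSPA6: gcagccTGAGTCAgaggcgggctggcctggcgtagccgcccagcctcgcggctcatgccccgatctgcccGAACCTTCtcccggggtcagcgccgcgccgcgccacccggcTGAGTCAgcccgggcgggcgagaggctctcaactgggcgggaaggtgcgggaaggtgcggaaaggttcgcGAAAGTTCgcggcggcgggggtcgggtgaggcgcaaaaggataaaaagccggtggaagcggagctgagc
The heat shock motif was found upstream of 5.95% of the listed genes and 6.46% of all coding genes.

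Ligands and antagonists of developmental pathways were also listed. For TGF-beta, BMP and activin signalling 3 of 55 genes were present, and all 3 were at least 2-fold lower. They included NOG and the BMP-responsive inhibitor of differentiation ID2, at −1.03 in the authors' deposited table. Among 29 Notch genes 4 were listed, with a median of −1.17. The repressor BHLHE40 was at −1.35, the Notch effector HEY1 at −1.27, the ligand DLL4 at −1.08 and HES2 at −0.63 in the authors' deposited table.

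Wnt and hedgehog genes were listed too. The ligands WNT7A and WNT10B were at −0.94 and −0.78 and the receptor-degrading ligase ZNRF3 at −0.67 in the authors' deposited table, 3 of 45 Wnt genes, with none at least 2-fold lower. Both hedgehog genes listed, of 17, bind or form the ligand. HHIP, which sequesters hedgehog proteins, stood at −1.13 and desert hedgehog (DHH) at −0.71 in the authors' deposited table.

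Guidance and angiogenesis genes shared a member, NRP2. Of 52 semaphorin, ephrin and guidance genes 5 were listed, with a median of −0.96. Ephrin-B1 (EFNB1) stood at −1.42, SEMA6B at −1.15, the neuropilin NRP2 at −0.96, the receptor EPHB2 at −0.66 and SEMA4B at −0.63 in the authors' deposited table. Angiogenesis genes were 4 of 28, with a median of −1.23, and comprised ESM1, the vascular receptor ROBO4 at −1.38, DLL4 and NRP2 in the authors' deposited table. DLL4 and NRP2 belong to other lists as well.

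At the cell surface and in the matrix, 5 of 66 extracellular matrix genes were listed with a median of −0.79. After FN1 on this list came the collagen COL13A1 at −0.98 and the laminin chain LAMC3 at −0.79 in the authors' deposited table. COL6A3 (−0.69) and COL4A6 (−0.65) were the others. The list leaves out COL8A2 (−0.86), COL21A1 (−0.70) and ABI3BP (−0.86), which were also in the authors' deposited table. Of proteoglycans and heparan sulfate enzymes 3 of 31 were listed, SDC1, the sulfotransferase HS3ST1 (−0.77) and the endosulfatase SULF2 (−0.67), according to the authors' deposited table. Junction genes were 5 of 56, led by the desmosomal protein PKP1 at −1.32 in the authors' deposited table. CLDN3 (−0.93), CLDN14 (−0.76) and CDH11 (−0.60) were also among them in the authors' deposited table.

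The 4 listed of 29 epithelial-mesenchymal genes came from both sides. The mesenchymal FN1 and SNAI1 (−1.08) were listed together with the epithelial CLDN3 and KRT19 (−0.61) in the authors' deposited table. KRT75 (−0.73) and KRT81 (−0.66) were the other keratins in the authors' deposited table, 3 of 24 in all with none 2-fold lower. The integrin ITGB4, a hemidesmosome subunit, was the 1 listed of 24, at −0.85 in the authors' deposited table.

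The regions upstream of FN1 and CXCL8 are shown as examples of listed genes with motifs of the CRE (TGACGTCA) and AP-1 kind, and capitals mark CRE and CCAAT matches in FN1 and the AP-1 match in CXCL8. The CXCL8 window also holds a match to the PEA3 core AGGAAGT, a motif of ETS type, and a TATA box (TATAAA), neither of them marked. FN1 covers chr2:215436069-215436318 on the minus strand and CXCL8 chr4:73740319-73740568 on the plus strand, both from RefSeq on GRCh38.p14.
FN1: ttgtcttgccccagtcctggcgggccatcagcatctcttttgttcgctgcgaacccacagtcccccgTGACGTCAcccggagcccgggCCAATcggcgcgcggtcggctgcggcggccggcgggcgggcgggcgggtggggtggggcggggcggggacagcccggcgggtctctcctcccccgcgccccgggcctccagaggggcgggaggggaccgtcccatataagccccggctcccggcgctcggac
CXCL8: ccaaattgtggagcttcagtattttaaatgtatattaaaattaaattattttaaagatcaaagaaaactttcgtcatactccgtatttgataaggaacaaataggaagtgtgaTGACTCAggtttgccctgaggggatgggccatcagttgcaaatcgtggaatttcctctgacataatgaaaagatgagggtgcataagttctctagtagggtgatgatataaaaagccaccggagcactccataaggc
The chemokine CXCL8, listed under its older name IL8, was at −1.17 and CXCL2 at −0.74 in the authors' deposited table, the 2 listed of 30 chemokines and interleukins. No gene was listed of the 25 on the list for NF-kB targets and regulators, beside 1.67% of all coding genes. That list leaves out CXCL8 and CXCL2, and also TRAF6 and ZC3H12A, both at −0.69 in the authors' deposited table.

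Among neuropeptides and G protein-coupled receptors, NTSR1, the neurotensin receptor, was lowest at −1.55 in the authors' deposited table. P2RY11 (−0.96) and P2RY2 (−0.88), receptors for extracellular nucleotides, the somatostatin receptor SSTR5 (−0.79) and the peptide galanin (GAL, −0.79) were the other 4 of 89 in the authors' deposited table. That list leaves out, among others, the receptor genes HTR7 (−1.08), GPR4 (−0.885) and ADRA1D (−0.86) and the neuropeptide gene VGF (−0.71). These were also in the authors' deposited table. Ion channels were 4 of 82, with KCNK15 far below the nucleotide-gated P2RX5 (−0.93), the pacemaker channel HCN2 (−0.93) and KCNG1 (−0.86) in the authors' deposited table. With a score of at least 50, 1 of these 4 was left. The channel list leaves out the calcium channel genes ITPR3 (−0.96) and ORAI1 (−0.83), which were also in the authors' deposited table. Solute carriers were 3 of 88, and SLCO4A1 (−0.69) and the vitamin transporter SLC5A6 (−0.73) were near the median of all listed genes in the authors' deposited table. No ABC transporter of 19 was listed, beside 1.67% of all coding genes.

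IGF2BP1 was listed with both architectural HMGA genes, which are expressed in embryonic and tumour cells. HMGA1 stood at −1.17 with a score of 436 and HMGA2 at −0.69 with a score of 75.6 in the authors' deposited table. These were 3 of 35 RNA-binding and oncofetal genes. IGF2BP2, IGF2BP3 and LIN28B were not listed.

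Enzymes that use arginine or its products were 4 of 24, all within a narrow range with a median of −0.85. The deiminases PADI1 (−0.88) and PADI2 (−0.87), which convert protein arginine to citrulline, were joined by nitric oxide synthase NOS1 (−0.83) and agmatinase (AGMAT, −0.74) in the authors' deposited table. None reached 2-fold. Of 56 cytochrome P450 and aldehyde or retinoid genes only the aldehyde oxidase AOX1 (−1.47) and the reductase DHRS2 (−1.51) were listed, both at least 2-fold lower in the authors' deposited table.

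Histone genes were the most numerous list, with 24 of 91 members (26.4%), but their decreases were small. The median was −0.70, and only HIST3H2BB, at −1.18 in the authors' deposited table, was at least 2-fold lower, which is 1 of 24 against the background of 20.1%. By class, 11 of 26 H2A genes, 8 of 22 H2B genes, 4 of 15 H4 genes, 1 of 10 H1 genes and 0 of 18 H3 genes were listed. In the table of shRNA A, with the same controls, 8 of the 18 H3 genes were listed, so the counting did reach H3 genes. Whether H3 genes differ between the 2 hairpins was not tested. After HIST3H2BB the lowest were HIST3H2A (−0.90), HIST1H4J (−0.90) and HIST1H2AJ (−0.86) in the authors' deposited table. Of the 24 genes, 17 lie on chromosome 6 and 5 on chromosome 1, with 1 each on chromosomes 12 and 22. Near-identical histone copies can share reads, so single values are uncertain.

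**Figure D3:**
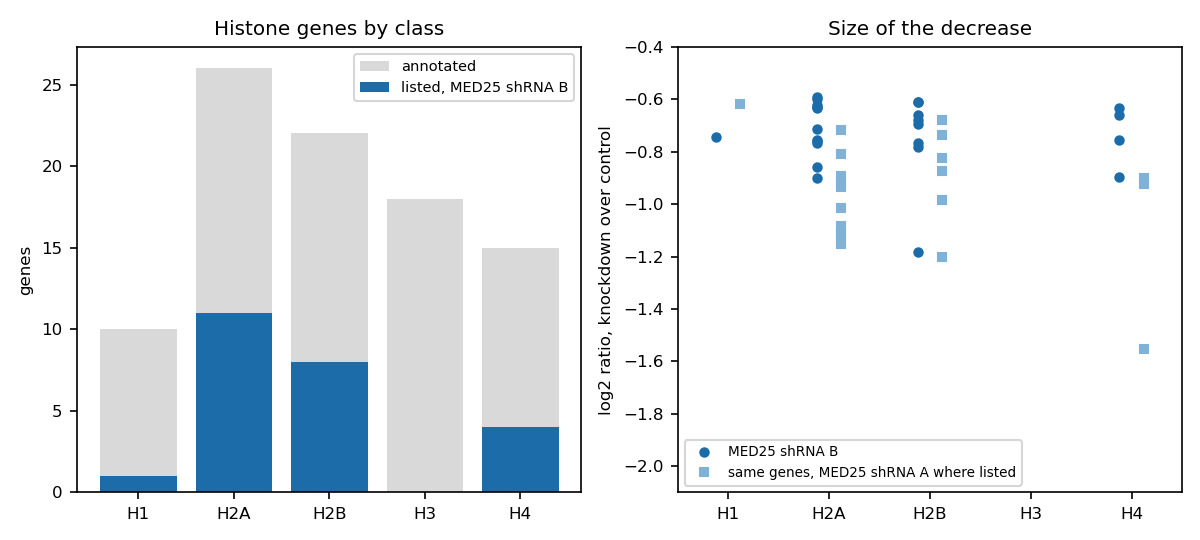
Left, number of histone genes per class in the annotation (grey) and listed for MED25 shRNA B (blue). Right, log2 ratio (knockdown over control) of each listed gene with MED25 shRNA B and, where listed, with shRNA A. H2A and H2B hold 19 of the 24 listed genes, H3 holds none, and values with shRNA B lie between −0.90 and −0.59 except HIST3H2BB at −1.18.

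HIST3H2BB and HIST3H2A lie head to head, and their upstream windows overlap. The window of HIST3H2BB, now named H2BC26, is printed because its CCAAT boxes, in capitals on either strand, are the element most of the listed histone genes have. It covers chr1:228457853-228458102 on the plus strand, from RefSeq on GRCh38.p14.
HIST3H2BB: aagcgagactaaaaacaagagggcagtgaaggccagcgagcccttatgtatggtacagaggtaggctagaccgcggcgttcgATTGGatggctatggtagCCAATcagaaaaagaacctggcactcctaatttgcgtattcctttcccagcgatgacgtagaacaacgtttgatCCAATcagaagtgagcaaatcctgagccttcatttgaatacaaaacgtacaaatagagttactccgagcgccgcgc
CCAAT was found upstream of 18 of 21 listed histone genes (85.7%) and of 47 of 56 histone genes not listed (83.9%), a similar share. For the TATA box (TATAAA) the counts were 14 of 21 (66.7%) and 31 of 56 (55.4%). The splits of histone genes by class and by listing were chosen after values were seen.

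Among regulators outside receptors, 5 of 118 kinases and phosphatases were listed. DYRK1B, a kinase linked to quiescence, was lowest at −1.24, with CDK14 at −0.77 and SGK1 at −0.70 in the authors' deposited table. RASL11A, a small GTPase of the Ras family, stood at −1.29 in the authors' deposited table, and the Cdc42 effectors CDC42EP1 (−0.82) and CDC42EP2 (−0.78) were also among the 5 of 71 GTPase genes. KLF4 was at −0.78 and the circadian repressor NR1D1 at −0.68 in the authors' deposited table. With MYC and KLF10 they made 4 of the 97 Kruppel-like, nuclear receptor and bHLH factors on the list used here. That list leaves out the bHLH genes BHLHE40, HEY1 and HES2 (values above) and TFAP4 (−0.71), which were also in the authors' deposited table. Of the 115 homeobox and developmental factors on the list used here, FOXL1 and SIX2 (−0.98) were in the authors' deposited table, a share of 1.74% beside 1.67% of all coding genes. That list leaves out the homeobox gene GBX2, which was at −1.15 in the authors' deposited table.

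Several lists had no member in the table. None of 58 mitosis genes, 38 apoptosis regulators, 30 cholesterol and fatty acid genes or 29 hypoxia and glycolysis genes was listed. The same held for 21 NRF2 targets, 60 complement and immune surface genes and 31 prostate lineage genes. Beside the 1.67% of all coding genes, an empty list of this size is no result about its members. The prostate list leaves out TGM4 (−0.88) and the apoptosis list CRADD (−0.61), both in the authors' deposited table. Of 67 G1/S and replication genes the repressor E2F7 was listed, at −0.82, and of 64 DNA repair genes ERCC1, at −0.60 in the authors' deposited table. These shares, 1.49% and 1.56%, lie near the 1.67% of all coding genes. A gene missing from the table cannot be called unaltered.

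Both MED25 hairpins were compared with the same 3 control libraries, so agreement between them is not independent evidence, and values are given side by side only. MED25 was lower with hairpin B (−1.71) than with A (−0.96) in the authors' deposited tables. FOXL1 stood at −1.68 with B and −0.81 with A, while for NOG the authors' deposited tables give −2.50 and −1.57. The reverse order was seen for AWAT2, a wax alcohol acyltransferase, with −0.92 and −2.80, and for galanin, with −0.79 and −1.78, by the authors' deposited tables. These differences were not tested.

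The 10 largest decreases absent from the table of hairpin A were ESM1, NTSR1, DHRS2, AOX1, PLCH2 (−1.40), PKP1, IL17RE (−1.31), KIAA0040 (−1.26), CTD-2021J15.2 (−1.25) and DYRK1B, with values from the authors' deposited table. IL17RE is a receptor chain for interleukin-17C and PLCH2 a phospholipase C. Of the 10, ESM1, DHRS2, AOX1 and KIAA0040 appeared in a table of ETV4, where ETV4 shRNA A gave −0.87, −0.71, −1.11 and −0.87 by the authors' deposited tables. A gene absent from the other MED25 table has no value there, and a difference between the hairpins was not tested.

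ETV4 knockdowns (3 libraries for each hairpin) used a retrovirus and had their own controls (2 libraries). No library is therefore common to them and to MED25 shRNA B. ETV4 shRNA A shared 47 genes, which is 12.6% of the 374 and 9.49% of its 495 genes. ETV4 shRNA B shared 27, which is 7.22% of the 374 and 27.6% of its 98 genes. For scale, GENCODE release 29 holds 19951 coding genes, some of which PC3 cells may not express. How many genes the authors tested is unknown. Whether 12.6% and 7.22% exceed the share of all tested genes in each ETV4 table was therefore not tested. Of the 75 genes at least 2-fold lower with MED25 shRNA B, 17 (22.7%) were in the table of ETV4 shRNA A and 13 (17.3%) in that of ETV4 shRNA B, against 30 (10%) and 14 (4.68%) of the other 299. The difference between these shares was not tested.

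**Figure D4:**
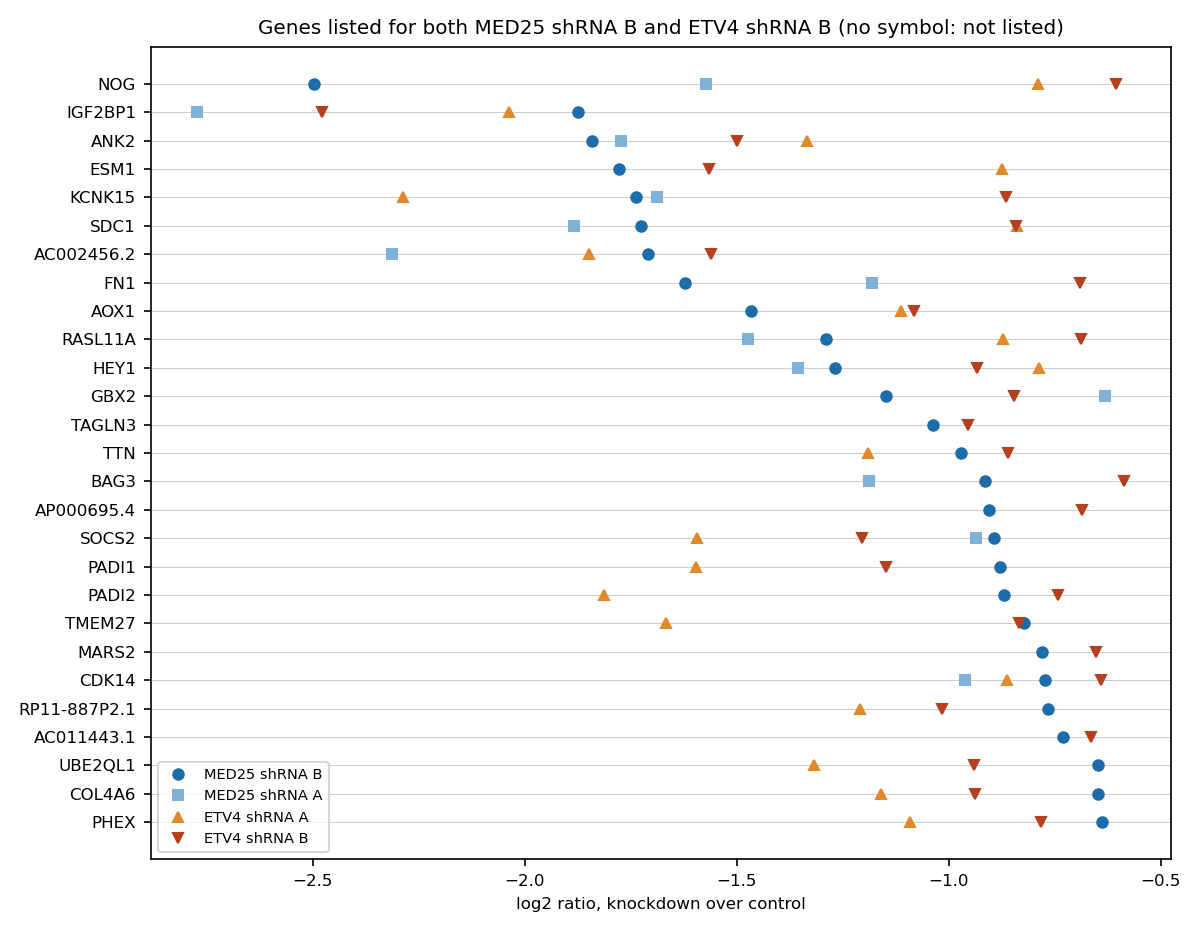
Each row is 1 of the 27 genes in the tables of both MED25 shRNA B and ETV4 shRNA B, and the x axis is the log2 ratio of knockdown over its own control in each of the 4 comparisons. A missing symbol means that the gene was not listed, and 19 of the 27 genes have a lower value with MED25 shRNA B than with ETV4 shRNA B.

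Values of these 27 genes ran from −2.50 to −0.64 with MED25 shRNA B (median −0.97) and from −2.48 to −0.59 with ETV4 shRNA B (median −0.86). IGF2BP1 and the antisense gene AC002456.2 were below −1.5 in each of the 4 authors' deposited tables. IGF2BP1 measured −1.88 (MED25 B), −2.77 (MED25 A), −2.04 (ETV4 A) and −2.48 (ETV4 B), and AC002456.2 −1.71, −2.31, −1.85 and −1.56, by the authors' deposited tables. ANK2 had −1.84, −1.77 and −1.34 for the first 3 in that order and was at 35.4% of control with ETV4 shRNA B (authors' deposited tables). NOG had smaller decreases after ETV4 depletion (−0.79 and −0.61), and SDC1 gave −0.84 for either ETV4 hairpin, by the authors' deposited tables.

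Another set had lower values with ETV4 shRNA A than with MED25 shRNA B. The values below are in the order MED25 B, ETV4 A, ETV4 B, all from the authors' deposited tables. PADI1 had −0.88, −1.60 and −1.15, and PADI2 −0.87, −1.81 and −0.74, by the authors' deposited tables. For SOCS2, an inhibitor of cytokine signalling, they were −0.89, −1.59 and −1.21, and for the amino acid transport partner TMEM27 (collectrin) −0.82, −1.67 and −0.83, by the authors' deposited tables. KCNK15 (−1.74, −2.29 and −0.86), the muscle protein gene TTN (−0.97, −1.19 and −0.86), CDK14 (−0.77, −0.86 and −0.64), IGF2BP1 and AC002456.2 (values above) and RP11-887P2.1 (−0.77, −1.21 and −1.02) also belonged to this set by the authors' deposited tables. UBE2QL1 (−0.65, −1.32 and −0.94), COL4A6 (−0.65, −1.16 and −0.94) and PHEX (−0.64, −1.09 and −0.78) were near the small end for MED25 shRNA B, by the authors' deposited tables.

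The last set was listed with ETV4 shRNA B and not with ETV4 shRNA A. The homeobox gene GBX2 stood at −1.15 with MED25 shRNA B and −0.85 with ETV4 shRNA B, FN1 at −1.62 and −0.69, and TAGLN3 at −1.04 and −0.95 by the authors' deposited tables. BAG3 (−0.91 and −0.59), the mitochondrial methionyl-tRNA synthetase MARS2 (−0.78 and −0.65), AP000695.4 (−0.90 and −0.69) and AC011443.1 (−0.73 and −0.66) completed it in the authors' deposited tables. The remaining shared genes had their lower value with MED25 shRNA B. In the order MED25 B, ETV4 A, ETV4 B they were ESM1 (−1.78, −0.87 and −1.57), AOX1 (−1.47, −1.11 and −1.08), RASL11A (−1.29, −0.87 and −0.69) and HEY1 (−1.27, −0.79 and −0.93), by the authors' deposited tables.

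ESM1 is shown because it was listed with MED25 shRNA B and with both ETV4 hairpins, though not with MED25 shRNA A. Its upstream window holds a match to the joint motif GGAANTGA, here on the opposite strand, and a TATA box, both in capitals. The joint motif sets a short ETS core beside the letters TGA, with which the AP-1 motif (TGANTCA) starts. No match to the full AP-1 motif was found in this window. The window covers chr5:54985594-54985843 on the minus strand, from RefSeq on GRCh38.p14.
ESM1: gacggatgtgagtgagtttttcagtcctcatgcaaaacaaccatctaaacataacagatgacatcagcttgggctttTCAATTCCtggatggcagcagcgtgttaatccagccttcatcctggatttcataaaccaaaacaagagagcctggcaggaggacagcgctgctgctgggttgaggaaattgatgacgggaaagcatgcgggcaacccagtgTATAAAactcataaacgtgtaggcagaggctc

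Upstream windows of 250 bases were available for 252 of the listed genes and 15842 coding genes in all, and 10 short motifs were searched on both strands. Listed genes had 1.43 windows each against 1.40 for all coding genes, and a GC content of 62.3% against 60.6%. The ETS core CCGGAAGT was found for 5 listed genes (1.98%), against 5.81% of all coding genes, and the related PEA3 core AGGAAGT for 18 (7.14%), against 8.94%. The joint motif GGAANTGA, which can overlap the PEA3 core, was found for 17 (6.75%), against 7.95%. AP-1 matches were found for 25 genes (9.92%), against 7.09%, CRE for 10 (3.97%, or 3.03% without histone genes), against 2.73%, and the E-box CACGTG for 32 (12.7%), against 9.73%. CCAAT was found for 40.5% of listed genes, or 36.4% without histone genes, against 40.2%, and the stress motif TGATGNAA for 3.17% against 3.16%. The TATA box was found for 15.9% of listed genes against 11.9%, and for 11.3% once histone genes were left out. None of these differences was tested, and a match is only a run of letters.

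**Figure D5:**
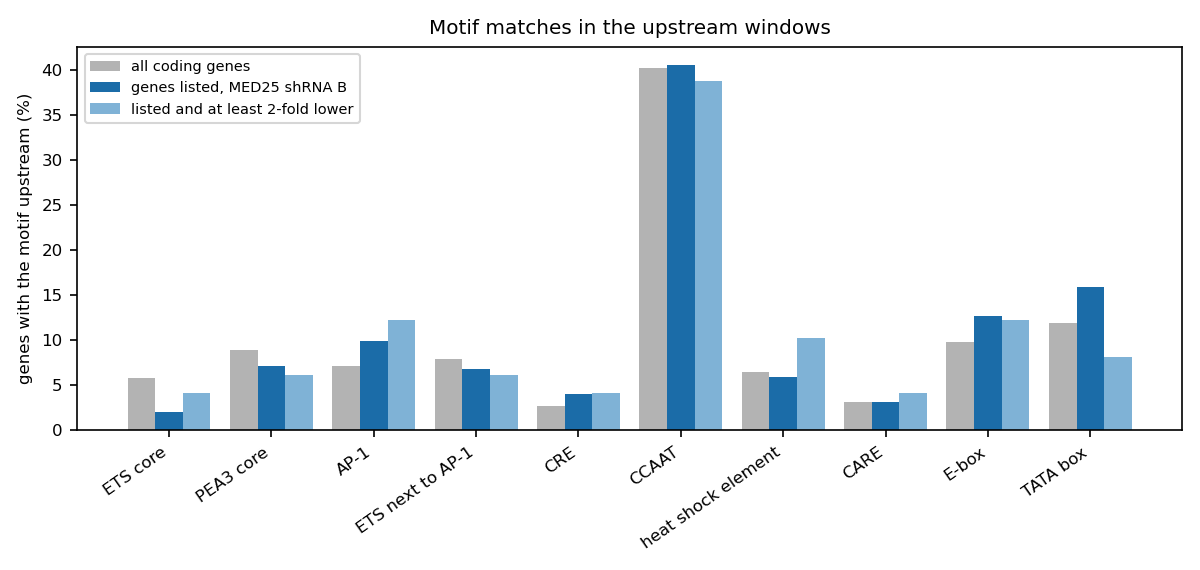
Bars give the percentage of genes with at least 1 match to each motif in the 250 bases upstream of an annotated start, for all 15842 coding genes, the 252 listed genes and the 49 of those that were at least 2-fold lower. The 3 groups are nested. AP-1 matches are 7.09%, 9.92% and 12.2% in that order, and ETS core matches 5.81%, 1.98% and 4.08%, where the last values stand for 6 and 2 of the 49 genes.

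Some listed genes are neighbours. In the annotation 53 of the 374 genes overlapped or directly adjoined another listed gene, in 9 overlapping pairs and 22 pairs of adjacent coding genes, of which 6 were pairs of histone genes. On chromosome 17 the run of NOG, C17orf67, DGKE and TRIM25 was listed whole, at −2.50, −0.99, −0.93 and −0.67 in the authors' deposited table, and the last 3 overlap one another. On chromosome 7 STX1A (50.1% of control), ABHD11 (−0.65) and CLDN3 (−0.93) lie side by side in the authors' deposited table. ANK2 adjoins CAMK2D (−0.77), NTSR1 adjoins SLCO4A1, FOSL1 adjoins C11orf68, PLCH2 adjoins PEX10 (−0.73) and PADI1 adjoins PADI2, by the authors' deposited table and the annotation.

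Overlap limits how some values can be read. CDK14 and AC002456.2 lie on opposite strands at 1 locus, as do SOCS2 and RP11-887P2.1, and CLDN14 with AP000695.4 and AP000695.6 (−1.10) in the authors' deposited table. TTN and CCDC141 (−1.06) overlap on the same strand. With strand use in counting not given in the sources used here, reads of such partners cannot be told apart and these values are uncertain.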

How the data were processed

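RNA was measured by sequencing in 17 libraries, of which the 3 of MED25 shRNA B and the 3 of the lentiviral control bear on the report. Per the submitters' processing notes, reads were aligned with Novoalign 3.08.02 to hg19. Counting, use of strand, scaling and the authors' test: not given in the sources used here. Per the file headers, the authors deposited a log2 ratio and an adjusted p for each gene, the second treated here as a score because its scale is not stated. The log2 ratio of both MED25 tables is control over knockdown and was turned round. That reading rests on the library numbers in the headers and the sign of the targeted gene. All listed genes were lower, and no value per library was analysed here.

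Gene identifiers were matched to GENCODE release 29, on a later build than hg19, by identifier (352 genes) or, for genes without a clone name, by symbol (13 genes), and 9 did not match. It served for gene type, chromosome and order. Upstream windows came from RefSeq on GRCh38.p14. The motif search was tested on simulated data. Members and lists were chosen with earlier results of these data known. Named genes are MED25, the 20 largest decreases, the 10 highest scores, the smallest value and score, all genes shared with ETV4 shRNA B, the 10 largest decreases absent from the shRNA A table, up to 8 members per list, and neighbours. Some genes that this rule names are not reported here. No test was fitted, since the tables hold results only. Alternatives were a log2 ratio of at least 1, a score of at least 50, coding genes alone, and leaving out neighbours. Python 3.11.15, pandas 2.3.3, numpy 2.4.6 and matplotlib 3.10.9 were used.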

Additional observations from a re-analysis of the deposited data

How the results depend on the processing

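Counts depended on the size and score limits. With a log2 ratio of at least 1, 75 of the 374 genes were left, sharing 17 rather than 47 genes with ETV4 shRNA A and 13 rather than 27 with ETV4 shRNA B, and histone genes dropped from 24 to 1. With a score of at least 50, 230 genes were left, 30.4% of them at least 2-fold lower against 20.1%, and 30 were shared with ETV4 shRNA A. A limit of 1.5 in place of 1 on the log2 scale was passed by 4.55% of the listed genes. Without overlapping or neighbouring genes, 17 genes were shared with ETV4 shRNA B and 12 histone genes were listed. Coding genes alone moved none of these counts by over 1.5 times. Of the 24 other lists with at least 3 members, the count moved by over 1.5 times for 18 at a log2 ratio of at least 1, for 9 at a score of at least 50 and for 3 without neighbours. Among the 49 genes at least 2-fold lower with a window, 2 (4.08%) had the ETS core, 5 (10.2%) the heat shock motif and 4 (8.16%) the TATA box. The shares of all listed genes were 1.98%, 5.95% and 15.9%. No paired analysis was possible because the tables hold 1 value per gene and no library, and for that reason no replicate could be left out in turn.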

Other observations

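Several noncoding genes were in the table, and those named here were chosen after their values were seen. Of the 365 matched genes, 9 were antisense, 8 processed transcripts and 7 long intergenic RNAs. The snoRNA host gene SNHG1 stood at −0.71 and PVT1, the long noncoding neighbour of MYC, at −0.67 in the authors' deposited table. A U3 gene (−0.65), SNORA5A (−0.66), a pair of U1 genes (−0.81 and −0.77) and MIR3654 (−0.83) were listed with scores from 20.7 to 39.4 in the authors' deposited table. MIR3654, SNORA5A and U3 lie inside CHCHD3, TBRG4 and TEX14 on the same strand, and reads of such overlapping genes cannot be told apart here.

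Further coding genes outside the lists were also picked after their values were seen. Fibrillarin (FBL), the methyltransferase of box C/D snoRNPs, was at −0.78, the U3 particle protein IMP4 at −0.84 and RRP12 at −0.62 in the authors' deposited table. The TFIID subunits TAF4B (−0.86) and TAF8 (−0.64) and the RNA polymerase III subunit POLR3C (−0.65) were also in the authors' deposited table. Tyrosine hydroxylase (TH), the rate-limiting enzyme of catecholamine synthesis, stood at −1.38 there.

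By chromosome, the share of coding genes listed ran from 0.653% on chromosome 14 to 2.87% on chromosome 6, where 17 of the 30 listed genes were histone genes, and chromosome 18 followed with 2.60% (7 of 269).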
